A study of Mus musculus with 8 samples.

Results

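A set of 190 mouse genes that carry RIKEN clone names of the 4930 to 4933 series was followed through RNA sequencing of testis and of RNF17 immunoprecipitates (IP). The members were picked by their symbol, but this set was chosen with earlier results of these data known. The symbol is made of 4930, 4931, 4932 or 4933, a clone code and the ending Rik. Such a symbol is carried by 192 of the 19276 entries of the deposited gene table. The rule left out 2 of these, for a reason not stated here. Of the 190 members, 111 belong to the 4930 series, 17 to the 4931 series, 14 to the 4932 series and 48 to the 4933 series. RefSeq lists 84 of them still under a RIKEN name and 105 under a newer gene name, and 1 was not matched. It classes 184 as protein-coding, 4 as long non-coding RNA genes and 1 as a transcribed pseudogene.

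RIKEN clone names were given to mouse genes first known from sequenced full-length cDNA clones, and the 4930 to 4933 numbers mark libraries made from testis. Genes found in this way include many that are active late in spermatogenesis, when round spermatids, the haploid cells left by meiosis, elongate, pack their chromatin, and build the acrosome and the tail. RNF17 is a germ cell protein with a RING finger and Tudor domains, which bind methylated arginines of PIWI proteins, the partners of piRNAs.

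The study used C57BL/6 mice aged 6 weeks, homozygous or heterozygous for an Rnf17 allele that the labels do not describe; heterozygotes are what homozygotes are set against, and no wild type is among the groups used here. There are 8 libraries in 4 groups of 2: homozygous testis, heterozygous testis, homozygous IP and heterozygous IP, the IPs being RNA recovered from testis lysate with an antibody against RNF17. Whether replicate libraries are from different animals is unstated, so that p-values measure the spread between libraries, which may be technical. Because whole testis was sequenced, fewer cells of a type and less RNA per cell cannot be told apart.

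Gene reads per library ranged from 5661754 to 50575649, and member reads took 8.10 and 9.59 of every 1000 gene reads in homozygous testis, against 15.2 and 20.6 in heterozygous testis. In the IPs the share was 10.6 and 11.3 per 1000 in homozygotes and 14.2 and 14.1 in heterozygotes. Rnf17 itself, the check of the labels, stood at 50.1 and 105 CPM (counts scaled to library size) in homozygous testis, against 518 and 532 CPM in heterozygous testis, and the difference on the log2 scale was -2.84 (SE 0.61, edgeR quasi-likelihood adjusted p = 0.139). In the IPs it was at 209 and 380 CPM in homozygotes and at 1273 and 1173 CPM in heterozygotes. The defining markers of spermatids, spermatocytes, spermatogonia, Sertoli cells, Leydig cells and macrophages all had reads in every library, as the tissue label requires. The heterozygous testis libraries differed more from each other than those of any other group, with r = 0.884 between their log2 CPM over 14180 genes, against 0.931 to 0.982 in the other groups.

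Nearly all members were transcribed in these testes. Reads were present in all 8 libraries for 169 members, in some libraries for 17 and in none for 4, which are 4930449I24Rik, 4931440F15Rik, 4933405O20Rik and 4933411K16Rik. Between 171 and 185 members were detected per library, and between 170 and 185 after every library was thinned to the 5661754 reads of the smallest. Mean levels reached 10 CPM for 100 members in homozygous testis and for 139 in heterozygous testis, and 100 CPM for 17 members in homozygous and 44 in heterozygous testis. Chromosome X carries 25 of the 189 members with a known chromosome (13.2%), against 4.36% of the 18905 table entries with one.

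Levels of different members were compared per kilobase of exon. In homozygous testis the highest was Ccdc181, a microtubule-binding protein of the sperm tail, with a mean of 221 CPM per kb. It was followed by 4933409G03Rik with 192 and by Cfap97, a cilium and flagellum associated protein, with 133 CPM per kb, both of which differed by more than 2-fold between the libraries of the group. In heterozygous testis Cabs1, a calcium-binding protein of elongating spermatids and the sperm tail, led with 639 CPM per kb. Ccdc181 followed with 575, 4930505A04Rik with 492 and 4930571K23Rik with 370 CPM per kb. The libraries of the heterozygous group spanned 306 to 973 CPM per kb for Cabs1 and 420 to 730 for Ccdc181, so that their order was not separated beyond the spread.

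Homozygous testis was compared with heterozygous testis to see which transcripts differ between Rnf17 genotypes. Most members had lower values in homozygous testis. Of the 175 members that passed the filter on low counts, 147 (84.0%) had a log2 fold change below 0, against 48.1% of the 14332 genes tested, and 98 (56.0%) lay below -1, against 15.7%. The median log2 fold change was -1.25 over the members and 0.04 over all genes tested, and it was -1.68 over the 157 tested genes of the RIKEN 1700 series, another set of clone names from testis. Without heterozygous testis replicate 2 the member median was -0.81.

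How many of these differences pass a test depended on the tool and, within edgeR, on the settings of the fit, whose counts are in the closing section. The edgeR quasi-likelihood test with Benjamini-Hochberg adjustment called 0 of the 175 members and 0 of all 14332 genes (0%), with a smallest adjusted p of 0.133 among the members. At an unadjusted p under 0.05, edgeR counted 72 members as lower (41.1%, against 8.16% of all genes tested) and 1 as higher (0.571%, against 1.98%). DESeq2 called 55 of 176 members lower (31.2%, against 4.83% of all genes) and 0 higher (against 0.153%). Without homozygous replicate 1 or 2 edgeR called 17 and 7 members, and without heterozygous replicate 1 or 2 it called 71 and 29, all lower, but such fits leave a lone library that is assumed to vary like the other group. The libraries of the genotypes did not overlap for 97 members with lower homozygous values (55.4%, against 18.4%) and for 9 with higher ones (5.14%, against 22.3%).

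**Figure D1:**
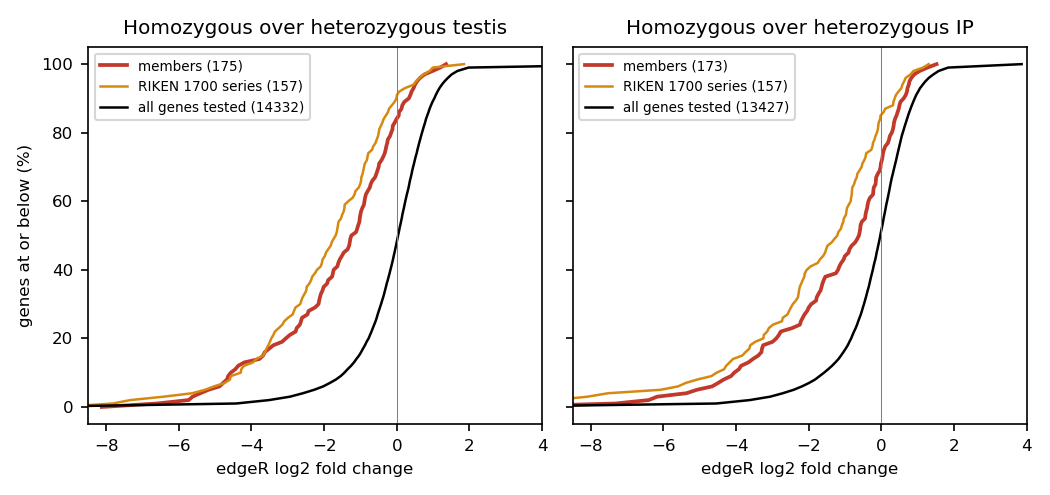
Cumulative share of genes (y axis, percent) at or below each edgeR log2 fold change (x axis), homozygous over heterozygous, in testis (left) and in IP (right), for the members, the RIKEN 1700 series and all genes tested, with the number of genes in each legend. The member curve lies to the left of the curve of all genes in testis, with a median of -1.25 against 0.04, and less so in IP, with -0.62 against -0.03. Genes beyond the ends of the axis are not drawn.

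Among the 55 members called by DESeq2, the homozygous mean was a median of 0.0838 of the heterozygous mean, with a range of 0.00437 to 0.256. It was under 0.1 for 32 of them and under 0.05 for 21. In the authors' deposited table of differing genes, 52 of the 734 genes listed are members (7.08%). Of its 595 genes with an adjusted p under 0.05, 46 are members (7.73%), all 46 lower in homozygotes. Members make up 0.986% of the entries of the deposited gene table. These 46 are all among the 55 members called here, of which they make up 83.6%. The authors' table compares the same testis groups, so this overlap is no independent support. Of the 55, 5 have no row in the authors' deposited table as used here: 4933402N03Rik, Spem2, Tex50, 4930402F06Rik and 4930544D05Rik. The heterozygous libraries were uneven for this group. Over 2-fold higher in heterozygous testis replicate 2 than in replicate 1 were 35 of the 55 (63.6%), and 0 were over 2-fold lower. Their median ratio was 2.43. Of all 14332 genes tested, 3084 were over 2-fold higher and 2565 over 2-fold lower, with a median ratio of 1.04. Among the 175 members tested, 48.6% differed over 2-fold between the heterozygous testis libraries, against 39.4% of all genes tested.

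The deepest difference was in 4933402N03Rik. It had 1.11 and 0.141 CPM in homozygous testis, against 133 and 153 CPM in heterozygous testis. The heterozygous libraries lay close together, and both homozygous libraries were far below them. The log2 fold change, -8.12 (SE 1.17, edgeR adjusted p = 0.133), is the lowest of all members tested.

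Cabs1 (4931407G18Rik) had 13.7 and 7.55 CPM in homozygous testis, against 461 and 1464 CPM in heterozygous testis, a log2 fold change of -6.58 (SE 0.95, edgeR adjusted p = 0.133). Tex50 (4930469G21Rik), named only for its expression in testis, had 1.42 and 2.07 CPM in homozygous and 37.2 and 57.8 CPM in heterozygous testis, a log2 fold change of -4.83 (SE 0.67, edgeR adjusted p = 0.133). Both genes were low in each homozygous library, although no overlap of the genotypes was a condition for naming them. Cabs1 differed by more than 2-fold between the heterozygous libraries. The 250 bases before the start of these genes are shown because they are the lower members with the smallest p that have a promoter entry, and because many genes of round spermatids are known to be switched on through CRE elements, the sites of the factor CREM. The sequences are from RefSeq, build GRCm38.p6, on the strand of the gene; Tex50 lies at chr1:161159315-161159564 on the minus strand and Cabs1 at chr5:87979201-87979450 on the plus strand. Capitals mark TGACG, the core of a CRE, or TTTATA, which is the TATA motif TATAAA on the other strand.
Tex50: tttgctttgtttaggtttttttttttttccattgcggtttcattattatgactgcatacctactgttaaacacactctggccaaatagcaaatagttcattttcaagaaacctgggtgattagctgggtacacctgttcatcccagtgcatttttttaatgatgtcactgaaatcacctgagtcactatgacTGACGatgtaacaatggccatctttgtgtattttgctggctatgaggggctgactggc
Cabs1: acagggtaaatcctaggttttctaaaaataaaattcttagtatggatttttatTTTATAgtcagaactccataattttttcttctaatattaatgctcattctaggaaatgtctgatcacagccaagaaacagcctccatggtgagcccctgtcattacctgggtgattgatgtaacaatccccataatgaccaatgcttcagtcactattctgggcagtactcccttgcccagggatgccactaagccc

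The TGACG of Tex50 begins at position -58 from the start, and the TATA motif of Cabs1 at position -197. Windows of 300 bases, 250 before and 50 after the start, were searched on both strands for the full CRE TGACGTCA, its core TGACG (which the full site contains) and TATAAA; 161 members have 182 such windows. The full CRE was in 1.92% of the 52 windows of members DESeq2 called lower in homozygous testis, in 0.769% of the 130 windows of other members and in 1.79% of all 32851 windows. The core was in 19.2%, 17.7% and 20.8% of the same windows, and TATAAA in 7.69%, 13.1% and 13.6%. These are matches of letters and not shown to be sites.

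**Figure D2:**
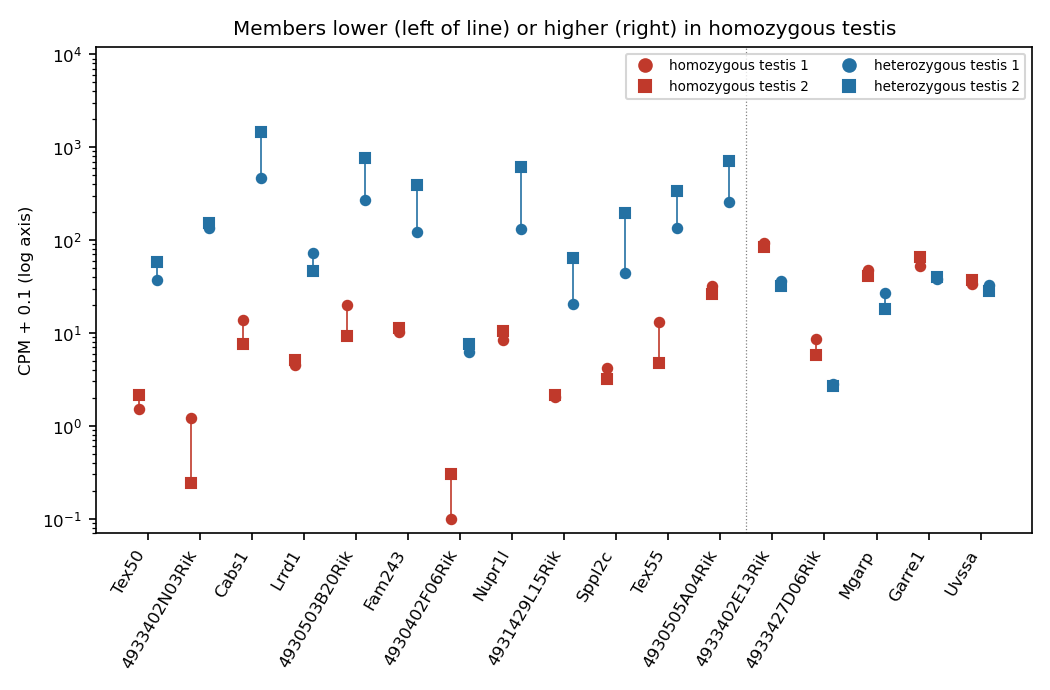
Levels in the 4 testis libraries (y axis, CPM plus 0.1, log axis) of the members named as lower, left of the dotted line, and as higher, right of it, in homozygous testis. Each point is a library, circles replicate 1 and squares replicate 2, homozygous left of heterozygous; for the lower members the genotypes are far apart, and Cabs1 runs from 7.55 to 13.7 CPM in homozygotes against 461 to 1464 CPM in heterozygotes.

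Other lower members named by the smallest p followed the same picture. Lrrd1, named for leucine-rich repeats and a death domain, had 4.45 and 5.04 CPM in homozygous testis and 71.8 and 46.0 CPM in heterozygous testis, and Fam243 had 10.2 and 11.1 against 123 and 387 CPM. The gene 4930402F06Rik had 0 and 0.201 CPM against 6.12 and 7.59 CPM. Sppl2c, an intramembrane protease of spermatids, had 4.05 and 3.05 CPM in homozygotes and 44.4 and 194 CPM in heterozygotes. Nupr1l, a relative of the transcriptional regulator NUPR1, had 8.20 and 10.4 CPM in homozygotes and 130 and 607 CPM in heterozygotes. No overlap of the genotypes was a condition for naming these 5 genes and is not a further result. Replicate 2 was the higher heterozygous library except for Lrrd1. The remaining 4 of this group, 4930503B20Rik (listed by RefSeq also as Samd13), 4931429L15Rik, Tex55 and 4930505A04Rik, had log2 fold changes of -5.24, -4.50, -4.80 and -4.15.

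A group of 20 members holds testis, spermatid and sperm genes. They were taken by name or, as for Sppl2c, H2al3, Eqtn and Adam20, by known role or expression. The role groups here and below were drawn up with earlier results of these data known. Their medians describe the lists and do not test a role. The median log2 fold change of the 20 members was -3.75, and 19 were below 0, against 48.1% of all genes tested. DESeq2 called 16 lower (against 4.83% of all genes), and 18 were lower without overlap of the genotypes (against 18.4%). Spem2, named for spermatid maturation, had 2.43 and 4.00 CPM in homozygous and 47.8 and 563 CPM in heterozygous testis. H2al3, a histone variant of the H2A-like family that appears in spermatids, had 1.21 and 0.904 CPM against 7.48 and 42.4 CPM. Eqtn, the acrosomal membrane protein equatorin, stood nearer, at 14.7 and 17.8 CPM in homozygotes and 68.9 and 67.6 CPM in heterozygotes, with a log2 fold change of -2.13. Ct55, a cancer and testis antigen, was the member above 0, at 13.9 and 7.11 CPM against 13.4 and 2.75 CPM, and its libraries overlapped. Reads of Spata31d1c, Spata31d1d and Samt2b may be shared with near-identical copies, and how the authors treated such reads is not given in the sources used here.

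All 3 members of the Mgat4 family, which encode branching enzymes of N-glycans or their relatives, were lower in both homozygous libraries. Of all genes tested, 18.4% were lower without overlap. Mgat4f had 0.911 and 0.703 CPM in homozygous testis and 11.6 and 67.8 CPM in heterozygous testis. Mgat4e had 1.92 and 1.08 CPM against 9.35 and 44.0 CPM, and Mgat4d, known as an inhibitor of a glycan enzyme in male germ cells, 24.8 and 31.0 CPM against 44.4 and 50.2 CPM. DESeq2 called Mgat4e and Mgat4f lower, and not Mgat4d; how reads shared between these relatives were assigned is not known here.

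The 14 members of cilia, flagella and centrioles had a median log2 fold change of -0.76, and 13 lay below 0. Lower without overlap of the genotypes were 5 (against 18.4% of all genes), and DESeq2 called 1 lower (against 4.83%). That gene was Stpg3, named for a sperm-tail repeat, with 2.02 and 1.93 CPM in homozygous and 4.59 and 20.7 CPM in heterozygous testis. Cep128, a protein of the mother centriole, had 503 and 784 CPM against 1084 and 1427 CPM, with no overlap and a log2 fold change of -1.04. Cfap97 had 193 and 1180 CPM in homozygotes, against 654 and 1244 CPM in heterozygotes; the libraries of each genotype were further apart than the genotypes, and its direction turned when homozygous testis replicate 1 or heterozygous testis replicate 2 was left out.

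Members of meiosis and DNA repair lay closer to 0, with a median of -0.32 over 7 genes. EdgeR called 0 of them, as of all genes. DESeq2 also called 0, against 4.83% of all genes lower and 0.153% higher. Meikin, which protects the joined chromatids at meiotic kinetochores, had 37.1 and 34.2 CPM in homozygous and 70.1 and 65.6 CPM in heterozygous testis, with no overlap. Meiob, a single-strand binding protein of meiotic recombination, had 55.9 and 51.2 CPM against 88.1 and 40.9 CPM, and its libraries overlapped. For 4930447C04Rik, which RefSeq also lists as Six6os1, a component of the synaptonemal complex, the values were 61.1 and 45.3 CPM in homozygotes and 143 and 46.4 CPM in heterozygotes.

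Members known from many tissues or outside germ cells had a median of -0.12 over 17 genes, and 9 of them were below 0. DESeq2 called 2 of the 17 lower, against 4.83% of all genes. They are Eva1c, a membrane protein, and Lrif1, a chromatin protein that binds nuclear receptors. Lrif1 had 29.5 and 57.8 CPM in homozygous and 144 and 205 CPM in heterozygous testis. Ints13, a subunit of the Integrator complex, had 151 and 233 CPM against 152 and 196 CPM. The gene 4932438A13Rik had 500 and 1139 CPM in homozygotes and 663 and 669 CPM in heterozygotes, and its direction turned without homozygous testis replicate 2.

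**Figure D3:**
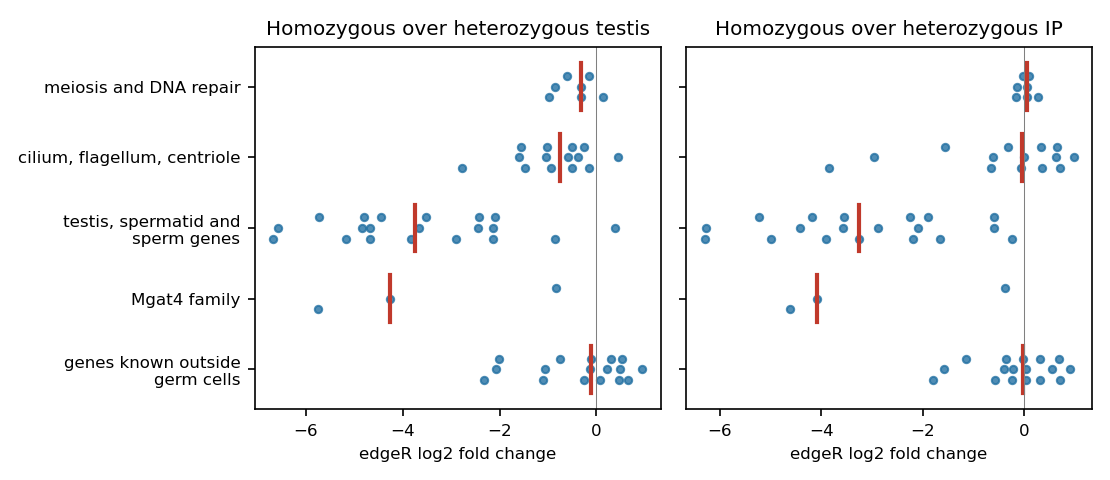
The edgeR log2 fold change (x axis) of members sorted by role (rows), homozygous over heterozygous, in testis (left) and in IP (right). The roles were assigned with earlier results of these data known. Each point is a gene and each red bar the median of its row: testis, spermatid and sperm genes have medians of -3.75 in testis and -3.25 in IP, and genes known outside germ cells of -0.12 and -0.01.

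Among the members with higher homozygous values, 5 met the conditions for being named. The gene 4933402E13Rik, on chromosome X, had 92.0 and 83.7 CPM in homozygous testis and 35.7 and 32.2 CPM in heterozygous testis, a log2 fold change of 1.31 (SE 0.51, edgeR adjusted p = 0.441), and it is the member with an unadjusted p under 0.05 in this direction. The long non-coding RNA 4933427D06Rik had 8.40 and 5.69 CPM against 2.72 and 2.55 CPM. Mgarp, a mitochondrial protein known from steroid-producing tissues, had 47.9 and 40.8 CPM in homozygotes and 26.5 and 18 CPM in heterozygotes. Garre1, an effector of Rac, and Uvssa, a factor of transcription-coupled repair, had log2 fold changes of 0.52 and 0.14. No member with higher homozygous values was called by edgeR or DESeq2. Members on chromosome X had a median of -0.60 over 20 genes with 4 DESeq2 calls. Those on autosomes had a median of -1.30 over 154 genes with 51. All these calls were lower, against 4.83% of all genes, and the difference between chromosome X and autosomes was not tested.

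Among the cell type markers, those of spermatids were lower in homozygous testis, as most members were, and the other lists differed. All 10 markers of elongating spermatids were lower in homozygous testis without overlap, and their summed level was 243 to 270 CPM there, against 4278 to 21607 CPM in heterozygous testis. All 10 markers of round spermatids had log2 fold changes below 0, with sums of 662 to 1160 CPM in homozygotes and 1757 to 4892 CPM in heterozygotes. Of the 9 spermatocyte markers present, 7 were below 0, with sums of 1329 to 3317 CPM in homozygotes and 2265 to 3451 CPM in heterozygotes. Lower without overlap were 7 round spermatid and 2 spermatocyte markers, against 18.4% of all genes. The other lists leaned upwards. Above 0 were 7 of 8 markers tested for spermatogonia, 7 of 8 for Sertoli cells, 7 of 7 for Leydig cells and 4 of 5 for macrophages. Higher without overlap were 2, 5, 6 and 3 markers of these lists in that order, against 22.3% of all genes. In the same lists 1 spermatogonial marker was lower without overlap. Leydig markers summed to 679 to 893 CPM in homozygous and 276 to 350 CPM in heterozygous testis, Sertoli markers to 990 to 1404 against 474 to 663 CPM, macrophage markers to 127 to 135 against 51.9 to 119 CPM, and spermatogonial markers to 401 to 406 against 253 to 497 CPM. No defining marker was at 0 in any library, and the part of these cells in the members' values was not tested.

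The comparison of homozygous with heterozygous IP asks which RNA the antibody recovers from each genotype. Here the replicates were closer together, and 95 of 173 members passed the edgeR test: 81 were lower in homozygous IP (46.8%, against 17.7% of the 13427 genes tested) and 14 were higher (8.09%, against 12.4%). The median log2 fold change was -0.62 over the members and -0.03 over all genes. DESeq2 called 74 members lower (42.5%, against 14% of all genes) and 13 higher (7.47%, against 11.2%). When all 8 libraries shared an estimate of the spread, edgeR called 34 members, all lower.

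Most of the testis, spermatid and sperm genes fell, with a median of -3.25. EdgeR called 16 of the 19 tested lower (against 17.7% of all genes) and 0 higher (against 12.4%). Cabs1 had 4.25 and 4.68 CPM in homozygous IP and 325 and 361 CPM in heterozygous IP, a log2 fold change of -6.30 (SE 0.26, edgeR adjusted p = 1.34e-07). Sppl2c had 3.33 and 5.81 CPM against 103 and 88.8 CPM, Spem2 4.06 and 2.10 CPM against 112 and 75.8 CPM, and Spata31d1d 4.25 and 4.52 CPM against 89.6 and 65.8 CPM. In each of these the homozygous libraries lie far below the heterozygous ones and the spread within a genotype is small beside the gap.

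Other members, some still under RIKEN names, fell as well. The gene 4933402N03Rik had 0 reads in both homozygous IPs and 32.4 and 22.8 CPM in the heterozygous IPs, at least 111-fold lower when the group is given a floor of 3 reads, which covers counting error only. Noxred1, named for an oxidoreductase domain, had 0.554 and 0 CPM in homozygous IP and 41.9 and 32.2 CPM in heterozygous IP. The gene 4931408C20Rik had 0.369 and 0.161 CPM against 23.1 and 25 CPM. For 4930571K23Rik the values were 12.2 and 11.8 CPM in homozygous and 206 and 182 CPM in heterozygous IP, and for 4930407I10Rik 76.7 and 100.03 CPM against 742 and 950 CPM. Fam243 and Trim80, a member of the tripartite motif family, were also among the 10 lowest by p, with log2 fold changes of -3.47 and -4.68.

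Another 14 members rose in homozygous IP. Fam228a had 172 and 237 CPM in homozygous IP and 70.0 and 73.5 CPM in heterozygous IP, a log2 fold change of 1.47 (SE 0.22, edgeR adjusted p = 4.31e-04). Ccdc171, a coiled-coil protein and the member with most reads in both homozygous IPs, had 1541 and 1917 CPM against 664 and 799 CPM. Ccdc175 had 763 and 1139 CPM against 434 and 418 CPM, and Taf7l2, a relative of the TFIID subunit TAF7, 563 and 662 CPM against 338 and 307 CPM. Each of these genes was higher in both homozygous libraries, which was a condition for choosing them by p. Of the 14, 4 are members of the cilium, flagellum and centriole group: Ccdc181, Tedc1, Jhy and Cfap97. EdgeR called 3 others of that group lower, and the group median was -0.03. Ints13, Mgarp and Shtn1 belong to the genes known outside germ cells, of which edgeR called 3 others lower. Of all genes tested, 12.4% were called higher and 17.7% lower. The rest of the 14 are Slc25a54, of the mitochondrial carrier family, Ankfn1, named for ankyrin and fibronectin repeats, and 4933402N22Rik. Leaving out heterozygous IP replicate 1 left 5 of the higher calls in number; of those named by the rule, the calls of Tedc1, Ccdc181, Slc25a54, Ankfn1 and Mgarp were lost without it, with adjusted p of 0.0537, 0.155, 0.204, 0.269 and 0.126. Ccdc181 and Slc25a54 also lost the call without heterozygous IP replicate 2 (0.0757 and 0.0547) or homozygous IP replicate 2 (0.0638 and 0.0811), and Mgarp without heterozygous IP replicate 2 (0.0552) or homozygous IP replicate 1 (0.0809).

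The genotype difference in IP went with that in testis. Across the 171 members tested in both, the log2 fold changes correlated at r = 0.777 (Spearman rho 0.683), against 0.605 (0.364) across all 13263 genes; genes are not independent replicates, and the comparisons share no library but come from the same kind of lysate. Both were below 0 for 112 of the 171 members, against 4006 of the 13263 genes. Testis was below 0 with IP above 0 for 33 of the members, against 2458 of the genes. Of the 55 members DESeq2 called lower in testis, 48 (87.3%) were also called lower in IP by edgeR, and they are 59.3% of the 81 IP calls. Ccdc175 and Ankfn1 were lower in testis by DESeq2 and rose in IP by edgeR. The summed level of the 10 elongating spermatid markers was 266 to 294 CPM in homozygous IP, against 6351 to 6766 CPM in heterozygous IP, and that of round spermatid markers 899 to 967 against 1974 to 2049 CPM; their part in the IP values was not tested.

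**Figure D4:**
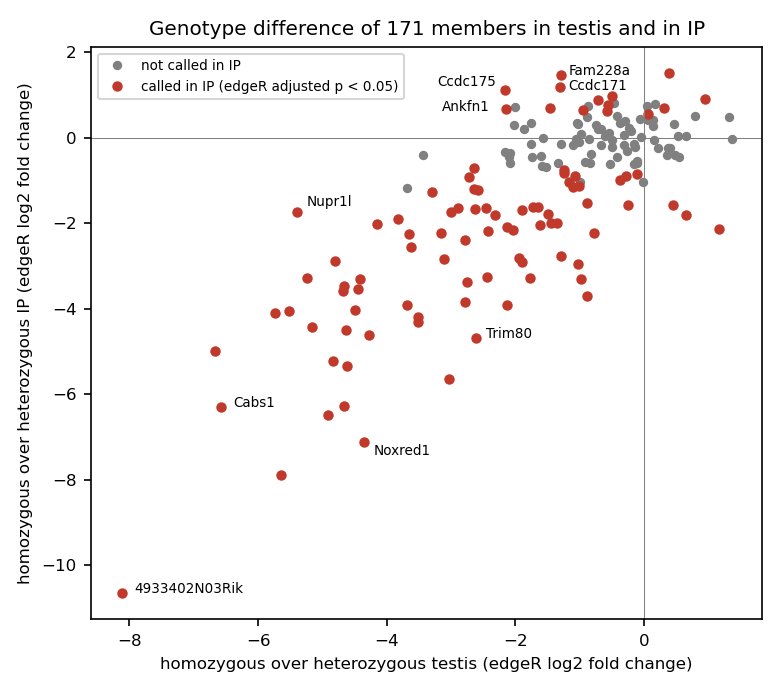
Genotype difference of the 171 members tested in both materials: edgeR log2 fold change, homozygous over heterozygous, in testis (x axis) and in IP (y axis). Each point is a gene, red where edgeR called it in IP; 112 points are below 0 on both axes, and Ccdc175, Ccdc171, Ankfn1 and Fam228a lie below 0 in testis and above 0 in IP.

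Within a genotype, the IPs were set against the testis libraries, which the authors label as lysate, to see which RNA the antibody enriches. The labels link no IP to a particular testis library. In heterozygotes edgeR called 0 of 175 members and 0% of the 13562 genes tested. At an unadjusted p under 0.05 it counted 27 members as lower in IP (15.4%, against 7.98%) and 8 as higher (4.57%, against 10.2%), and DESeq2 called 13 lower (7.69%, against 2.92%) and 1 higher (0.592%, against 2.02%). The member median was -0.43, against -0.04 over all genes, and -0.13 without heterozygous testis replicate 2. Without heterozygous testis replicate 1 or 2 edgeR called 102 and 90 members, in fits where that group is a lone library.

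The members with the smallest p below 0 include Adam20, of the ADAM family of membrane proteases, with 34.3 and 42.7 CPM in heterozygous IP and 127 and 184 CPM in heterozygous testis. Lrif1 had 44.4 and 56.3 CPM in IP, against 144 and 205 CPM in testis, and 4933402N03Rik 32.4 and 22.8 CPM against 133 and 153 CPM. Fancd2os, which lies opposite Fancd2 so that reads of the pair cannot be told apart without strand, had 13 and 13.6 CPM in IP and 44.9 and 100.3 CPM in testis. Above 0, 4930402H24Rik had 273 and 257 CPM in IP and 105 and 86.6 CPM in testis, a log2 ratio of 1.48 (SE 0.34, edgeR adjusted p = 0.210). Bnip5 had 9.35 and 13.3 CPM against 1.02 and 2.94 CPM and is the member DESeq2 called higher. Prr27, a proline-rich protein, had 92.1 and 92.7 CPM in IP and 32.1 and 46.0 CPM in testis. No overlap of the IP with the testis libraries was a condition for choosing these genes by p, and is not a further result.

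In homozygotes, where Rnf17 RNA was lower, edgeR called 4 of 159 members higher in IP than in testis (2.52%, against 1.84% of 13334 genes) and 0 lower (against 1.45%). At an unadjusted p under 0.05 it counted 10 members as lower (6.29%, against 11.1%) and 27 as higher (17%, against 11.5%), and DESeq2 called 5 lower (3.47%, against 5.15%) and 13 higher (9.03%, against 5.45%). The 4 are Ankfn1, Ccdc171, Ccdc175 and Tmem243, a small membrane protein. Ankfn1 had 151 and 159 CPM in homozygous IP and 11.4 and 30.2 CPM in homozygous testis, a log2 ratio of 2.997 (SE 0.47, edgeR adjusted p = 0.0115). Ccdc171 had 1541 and 1917 CPM in IP and 260 and 305 CPM in testis, with a log2 ratio of 2.70 (SE 0.49, edgeR adjusted p = 0.0182). Ccdc175 had 763 and 1139 CPM in IP, against 81.9 and 204 CPM in testis. Tmem243 had 46.4 and 63.9 CPM in IP, against 18.8 and 15.5 CPM in testis. Both IP libraries were above both testis libraries for each of the 4.

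These calls rest on few libraries. Without homozygous IP replicate 2 edgeR called 1 member, and Ccdc171, Ccdc175 and Tmem243 had adjusted p of 0.196, 0.119 and 0.466; without homozygous IP replicate 1, Ccdc171 and Tmem243 had 0.0631 and 0.0998. Without homozygous testis replicate 1 or 2 it called 36 and 50 members. The lowest members by p were 4930467E23Rik, with 2.22 and 1.29 CPM in IP and 7.08 and 13.5 CPM in testis, and 4930523C07Rik, with 1.29 and 2.26 CPM against 13.5 and 7.78 CPM. Eqtn had 5.17 and 2.42 CPM in homozygous IP and 14.7 and 17.8 CPM in homozygous testis. The member median was -0.02, against -0.01 over all genes.

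The test of whether the ratio of IP to testis differs between genotypes uses all 8 libraries, and shares libraries with every comparison above. The log2 ratio in homozygotes minus that in heterozygotes had a median of 0.46 over 177 members and -0.02 over all genes; without heterozygous testis replicate 2 the member median was 0.01, and without homozygous testis replicate 1 it was 0.30. EdgeR called 0 members and 0% of the 14180 genes tested. At an unadjusted p under 0.05 it counted 23 members as higher (13%, against 6.08%) and 6 as lower (3.39%, against 3.6%). DESeq2 gave an adjusted p to only 85 members and 5966 genes. Of these 85 members it called 9 higher (10.6%, against 3.65% of the 5966 genes) and 0 lower (against 0.503%). Without heterozygous testis replicate 1 edgeR called 16 members, 15 higher and 1 lower.

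The 9 are Ccdc175, Fam228a, Ccdc171, Ankfn1, Nupr1l, 4933436I01Rik, Ccdc181, Tmem243 and Taf7l2. Ccdc175 had the lowest DESeq2 p and an edgeR difference of 3.36 (SE 0.65, edgeR adjusted p = 0.260): its IP level was above testis in homozygotes, with 763 and 1139 against 81.9 and 204 CPM, and below testis in heterozygotes, with 434 and 418 against 664 and 548 CPM. Fam228a showed the same crossing, with 172 and 237 CPM in IP and 80.7 and 116 CPM in testis of homozygotes, and 70.0 and 73.5 CPM in IP and 184 and 270 CPM in testis of heterozygotes. For Nupr1l the homozygous IP had 15.9 and 15.5 CPM against 8.20 and 10.4 CPM in testis, and the heterozygous IP 51.8 and 49.9 CPM against 130 and 607 CPM. Among the members with the lowest differences, Trim80 had 2.40 and 2.26 CPM in IP against 6.58 and 4.82 CPM in testis of homozygotes, and 73.4 and 42.7 CPM against 24.5 and 41.8 CPM in heterozygotes, an edgeR difference of -1.98 (SE 0.67, edgeR adjusted p = 0.406).

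**Figure D5:**
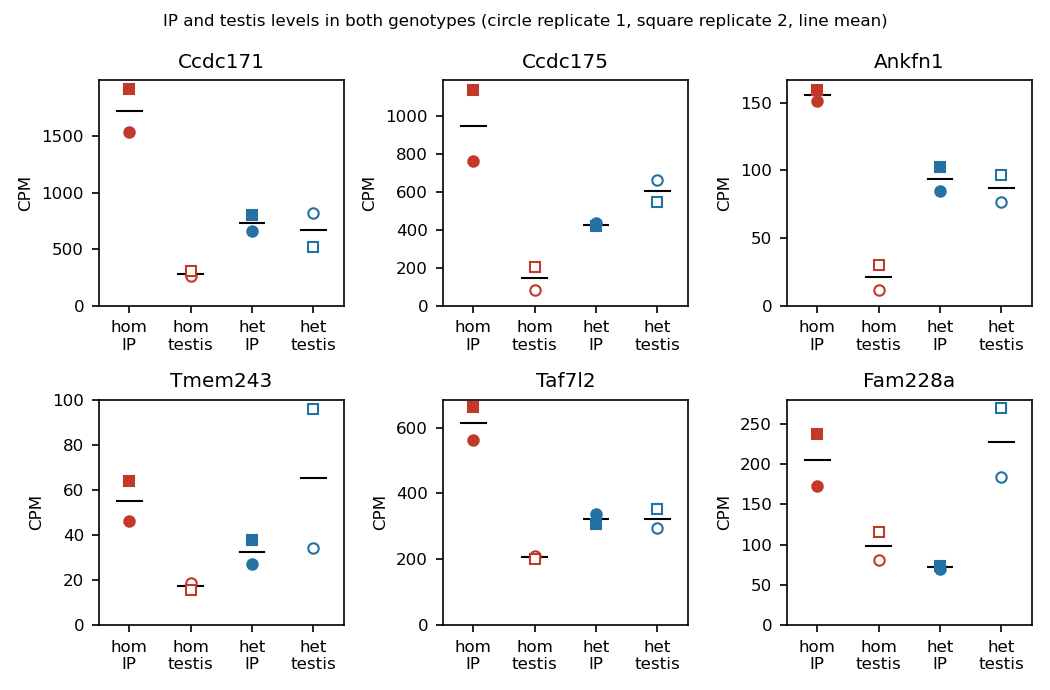
Levels (y axis, CPM from 0) of Ccdc171, Ccdc175, Ankfn1, Tmem243, Taf7l2 and Fam228a in homozygous IP, homozygous testis, heterozygous IP and heterozygous testis (x axis, hom and het). Points are libraries and lines group means; in homozygotes each of these genes is higher in both IP libraries than in both testis libraries, such as Ankfn1 with 151 and 159 against 11.4 and 30.2 CPM.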

How the data were processed

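Whole-number counts of reads per gene were deposited by the authors for 8 libraries; the submitters' processing notes name mm9 as the build, STAR and DESeq, with versions, strand and read assignment: not given in the sources used here. Testis columns of the IP tables repeat those of the testis table (4 of 4 identical), and 0 columns were left unmapped. The authors' deposited table of differing genes gives, per the file headers, 1 normalised signal for each genotype, log2 fold changes, a score (their standard error) and p-values; it served for comparison only.

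Genes were tested over the whole table with edgeR 4.0.16 in R 4.3.3 (quasi-likelihood test, TMM scaling, filterByExpr, Benjamini-Hochberg adjustment, threshold 0.05), each comparison on its own 4 libraries and the difference of ratios on all 8. The code was tested on simulated data. DESeq2 1.42.0 was an alternative, with others in the closing section. Shares called by DESeq2 are over the genes to which it gave an adjusted p. CPM use TMM factors of all 8 libraries; floors are 3 reads over a group and cover counting error only. Lengths are GENCODE exon unions; names, chromosomes and promoters are from RefSeq, matched by symbol (189 of 190 members). Its build differs from mm9, so gene coordinates are not given except for printed promoters.

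The members, roles and marker lists were chosen with earlier results of these data known. Named are Rnf17, 4933402N03Rik, the 10 highest members in heterozygous testis (also among renamed ones), in testis the 12 lower and up to 6 higher members with the smallest p, no overlap and at least 5 CPM, 5 per direction in the other comparisons, and up to 10 called members per direction; some further role members were chosen after their values were seen. Transposon tables were not used here.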

Additional observations from a re-analysis of the deposited data

How the results depend on the processing

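The median member log2 fold change kept its direction in testis, homozygous against heterozygous IP, heterozygous IP against testis and the difference of ratios under every alternative run; in homozygous IP against testis it stayed within -0.11 to 0.05. The ranges with a library left out were -1.67 to -0.81 in testis, -0.75 to -0.65 in IP and -0.56 to -0.13 for heterozygous IP against testis. The median difference of ratios, 0.46, was smaller than the combined spread of the library medians, 0.49 on the log2 scale. It nearly vanished without heterozygous testis replicate 2. Counts of called members moved more, and the cause was not tested. In testis (0 as reported) they were 55 with DESeq2, 50 with all 8 libraries in 1 fit, 35 without the filter, 63 with a replicate block, 0 with DESeq2 size factors or thinning, and 7 to 71 with a library left out. Between IPs (95) the fit of all 8 libraries gave 34 and the replicate block 99. For heterozygous IP against testis (0) DESeq2 gave 14, the block 3 and leaving out a library 0 to 102. For homozygous IP against testis (4) they were 18 with DESeq2, 7 with its size factors, 2 with all 8 libraries, 20 without the filter, 14 with the block, 7 after thinning and 1 to 50 with a library left out. For the difference of ratios (0) DESeq2 gave 9, the block 0 and leaving out a library 0 to 16. The direction turned for Cfap97 in testis (0.018 without heterozygous testis replicate 2, 0.27 without homozygous testis replicate 1; -2.28 to 0.27 over all) and for 4932438A13Rik (-0.41 without homozygous testis replicate 2, up to 0.73 without replicate 1); the other 836 of 839 values for named members kept theirs.

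Replicate numbers pair nothing in the labels. Deviations of same-numbered libraries correlated at 0.598 between testis genotypes, 0.0434 between IPs, 0.0354 between heterozygous IP and testis and -0.130 between homozygous IP and testis; crossing the last pairing, an alternative chosen after seeing the data, gave 23 calls. With 2 libraries a group, a fit without a library leaves a lone one, so the rise in calls adds no support.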

Other observations

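In testis the median log2 fold change, homozygous over heterozygous, was -1.29 over 98 members with a newer name and -1.12 over 76 under a RIKEN name. DESeq2 called 33 and 22 of them lower, against 4.83% of all genes. By series it was -1.27 for 4930, -1.99 for 4931, -1.57 for 4932 and -0.83 for 4933, over 100, 16, 14 and 45 members; these differences were not tested.

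Among the most abundant members, 4932414N04Rik had 113 and 228 CPM in homozygous testis and 716 and 393 CPM in heterozygous testis, and A26c3, of an ankyrin repeat family, 67.6 and 235 CPM against 401 and 281 CPM. Toporsl had 82.6 and 171 CPM in homozygous testis against 189 and 609 CPM in heterozygous testis, and Ppp1r14bl, a relative of phosphatase inhibitors, 90.2 and 130 CPM against 161 and 592 CPM. The genotypes did not overlap for any of these 4, and edgeR and DESeq2 called none of them in testis. Susd6 and Fam210a were called lower by DESeq2 and not by edgeR in homozygous IP against testis, with 16.6 and 14.5 against 56.0 and 29.5 CPM for Susd6, and 15.7 and 15.5 against 30.3 and 51.2 CPM for Fam210a. The difference of ratios was below 0 for 4930474N05Rik, with 1.29 and 0.645 CPM in IP and 1.42 and 4.58 CPM in testis of homozygotes, and 8.21 and 10.3 CPM against 5.95 and 5.43 CPM in heterozygotes.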
